A study of Mus musculus with 6 samples.

Results

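Fibroblasts of the mouse ear, called dermal in the description of the series, spent 3 days either on a soft polyacrylamide hydrogel of 1 kPa or on glass, and their polyadenylated RNA was sequenced. Each substrate has 2 libraries, made from 500000 cultured cells each. The comparison covers 4 of the 6 libraries and the 16093 genes, of 57010 in the count table, that had enough counts to be tested. The other 2 libraries come from the same cells on a 20 kPa gel. They entered the shared estimate of the spread and are used here only to show where 1 kPa stands apart. The labels give no strain, age or sex, name no treatment besides the substrate, and leave it unsaid if a substrate's pair of libraries stems from different animals or cultures. The p-values therefore measure the spread between these libraries, which may be technical. The series asks how the stiffness under the cells bears on their epigenetic state on the way to becoming neurons; no reprogramming agent is named for these samples.

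Fibroblasts make and remodel the connective tissue of the skin. They hold on to their surroundings through integrins and pull on them with actin and myosin. Glass is far stiffer than skin, and a gel of 1 kPa is close to the softest tissues, so a cell that pulls on the gel meets little resistance. The same cells send and receive growth factors, Wnt and BMP signals, metal ions, lipids and small metabolites, and their response to a soft bed is read here across those families rather than through the better-known inflammatory, contractile and sterol genes.

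The labelled cell type was checked against 20 fibroblast markers, all of which passed the filter on low counts. Their summed level was between 37598 and 57479 CPM (counts scaled to a common library size with TMM factors) in every library. Most of it in each library came from Fn1, Col1a1, Col1a2, Col3a1 and Vim, so the sum says little about the other markers. Dcn, which codes for the collagen-binding proteoglycan decorin, was at 144 and 171 CPM on glass and 3766 and 3318 CPM on 1 kPa. Prrx1, a transcription factor of limb and skin mesenchyme, was at 359.9 and 383 CPM on glass and 679 and 674 CPM on 1 kPa. Of the 20 markers, 15 rose and 4 fell on 1 kPa, with a median log2 fold change of 0.36. Those that fell included Vim, Ly6a and Cd34, the last from 77.7 and 78.8 CPM on glass to 41.0 and 44.05 CPM on 1 kPa. Some markers had few counts: Fap had 5 and 17 on glass and 259 and 187 on 1 kPa, and Dpp4 had 5 to 14 in every library.

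Libraries held 17669006 to 21350111 counts, at which 3 counts of a gene equal 0.139 to 0.174 CPM; this floor and all counting intervals cover counting error only. Mitochondrially encoded genes took at most 1.55% of a library. One gene without a symbol in the annotation used, ENSMUSG00000119584, held 5.11% of all counts in glass replicate 2, against 0.948% to 2.91% in each other library. Libraries of a group correlated at 0.992 to 0.993 over genes on the log2 scale. In bulk RNA, fewer cells of a type and less RNA per cell cannot be told apart.

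On 1 kPa, 7238 genes differed from glass at an adjusted p under 0.05 in edgeR's quasi-likelihood test, which is 45.0% of those tested. Of these 3697 were higher (23.0%) and 3541 lower (22.0%), and the median log2 fold change of all tested genes was 0.00. With library totals in place of TMM factors the split was 3509 higher and 3599 lower. The counts were balanced but the sizes were not. At least 2-fold changes were seen for 1549 genes upward (9.63%) and 485 downward (3.01%). At least 8-fold changes numbered 317 upward and 10 downward. Most calls were small: 53.8% of the changed genes moved by less than 1.5-fold. The genes that rose at least 2-fold went from 3.29% of all CPM on glass to 11.5% on 1 kPa, and those that fell at least 2-fold from 2.56% to 1.06%.

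The genes with large changes had low levels. Those that rose at least 2-fold had a median of 1.06 CPM on glass and 4.26 CPM on 1 kPa, and those that fell at least 2-fold had medians of 5.73 and 2.04 CPM. Among protein-coding genes, the fifth with the lowest mean level over the 4 libraries held 803 genes that rose and 226 that fell, with a median log2 fold change of 0.34. The fifth with the highest level held 661 that rose and 1193 that fell, with a median of -0.11. In the table of tested genes, 48 had no count on glass and 2 had none on 1 kPa. Exon length moved little with the change: across 5 equal groups by length the median was between -0.07 and 0.01. On the X chromosome 77 genes rose and 129 fell of 483, with a median of -0.08. Of 1373 long non-coding RNAs, 204 rose and 145 fell.

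**Figure D1:**
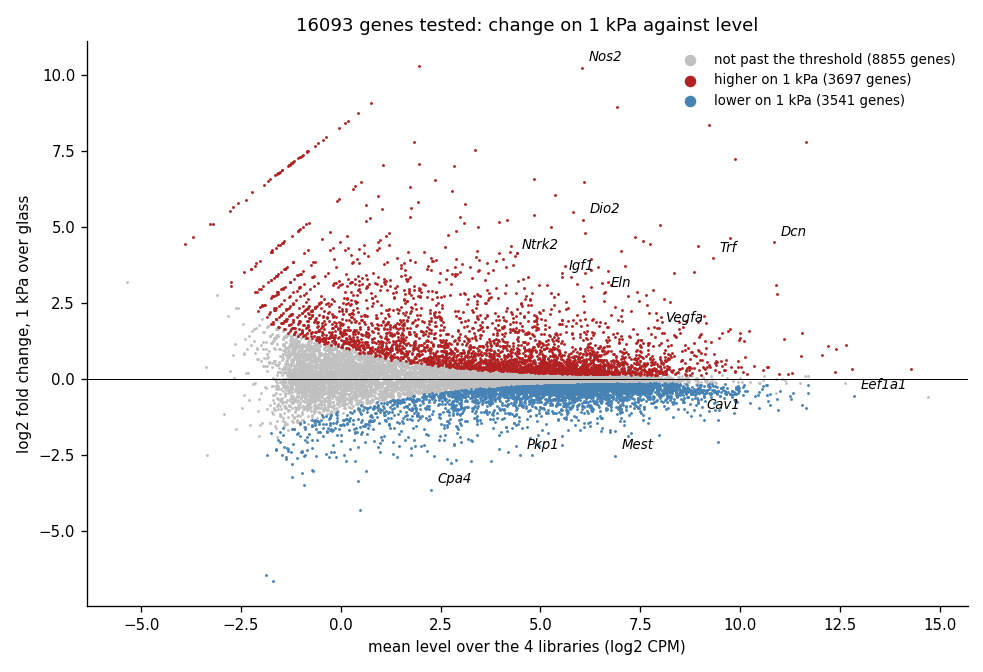
Change on 1 kPa over glass (vertical axis, log2) against the mean level of each gene over the 4 libraries (horizontal axis, log2 CPM) for the 16093 genes tested. Genes that rose and genes that fell at an adjusted p under 0.05 are coloured; the upward tail holds 317 genes at 8-fold or more against 10 downward.

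The genes that head the sections below are protein-coding, and their values are counts over annotated exons. In GRCm38 coordinates, Draxin (ENSMUSG00000029005) occupies bases 148098437 to 148130698 of chromosome 4, minus strand, and Ntrk2 (ENSMUSG00000055254) bases 58806569 to 59133970 of chromosome 13, plus strand. Of 3 more plus-strand genes, Nos2 (ENSMUSG00000020826) occupies bases 78920787 to 78960254 of chromosome 11, Cav1 (ENSMUSG00000007655) bases 17306335 to 17341452 of chromosome 6, and Mest (ENSMUSG00000051855) bases 30723547 to 30748465 of the same chromosome. On the minus strand lies Dio2 (ENSMUSG00000007682), at bases 90724552 to 90738438 of chromosome 12.

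Lists of functionally related genes are described below by their tested members. The reference is the 23.0% higher and 22.0% lower of all tested genes and their median of 0.00. These shares depend on level. Of the 2682 protein-coding genes with the highest mean levels, 24.6% were higher and 44.5% lower (median -0.11). Of the 2682 with the lowest, 29.9% were higher and 8.43% lower (median 0.34). Lists were not compared with genes of similar level, so the part of level in their shares was not tested. A member that was counted only through the group where it is high had to differ, so for lists that rose the values with a stricter filter, a mean of at least 5 CPM over all 6 libraries, are given too. A gene near the floor on glass can still pass that filter through the gels alone. The stricter values therefore do not remove this selection. For each gene named with values, unless said otherwise, both libraries of one substrate lay above both of the other.

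Families of secreted signals and their receptors held more genes that rose than fell. The FGF family signals through receptor tyrosine kinases that need heparan sulfate. Of 16 tested members (of 20 listed), 8 rose and 2 fell, with a median of 0.76; with the stricter filter, 5 of 8 were higher and 0 lower, with a median of 0.57. Fgf23, the phosphate-lowering hormone known chiefly from bone, was at 1.66 and 2.55 CPM on glass and 32.8 and 30.3 CPM on 1 kPa (log2 fold change 3.93, SE 0.15, adjusted p = 3.0e-19). Fgf2, the basic FGF that drives fibroblast growth, was at 64.9 and 64.1 CPM on glass and 132 and 143 CPM on 1 kPa (log2 fold change 1.09, SE 0.06). For both genes the 1 kPa libraries lay wholly above those on glass. Among the receptors, Fgfr3 was at 3.88 and 2.90 CPM on glass and 17.0 and 17.8 CPM on 1 kPa (log2 fold change 2.33, SE 0.14). Fgf7, which fibroblasts send to keratinocytes, was at 209 and 230.0 CPM on glass and 325 and 313 CPM on 1 kPa (log2 fold change 0.54, SE 0.06). Fgfbp1, which releases FGFs from the matrix, went the other way and was at 3.10 and 3.36 CPM on glass and 1.02 and 0.448 CPM on 1 kPa (log2 fold change -2.09, SE 0.35).

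Of 21 PDGF and VEGF genes, 12 rose and 1 fell (median 0.31; with the stricter filter, 10 of 15 were higher and 1 lower, with a median of 0.29). Vegfa, the main growth factor of blood vessels, was at 122 and 121 CPM on glass and 378 and 389 CPM on 1 kPa (log2 fold change 1.66, SE 0.06, adjusted p = 2.2e-20). Vegfc, the lymphatic member, was at 11.9 and 12.5 CPM on glass and 32.7 and 30.2 CPM on 1 kPa (log2 fold change 1.37, SE 0.10). The 1 that fell was Vegfd, also lymphatic, at 88.1 and 86.0 CPM on glass and 42.4 and 40.6 CPM on 1 kPa (log2 fold change -1.07, SE 0.07). So 2 ligands of the same receptors moved in opposite directions. Angpt2, an antagonist of the vessel receptor TIE2, was at 7.44 and 6.73 CPM on glass and 14.9 and 13.7 CPM on 1 kPa (log2 fold change 1.01, SE 0.13), and Pdgfb, a PDGF chain that recruits pericytes, was at 1.62 and 0.696 CPM on glass and 6.43 and 4.82 CPM on 1 kPa (log2 fold change 2.23, SE 0.28). The 15 endothelial markers summed to 183 to 190.2 CPM on glass and 253 to 269.8 CPM on 1 kPa; their part in these results was not tested.

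In the EGF family 6 of 14 tested members rose and 1 fell (median 0.58; with the stricter filter, 4 of 7 were higher and 1 lower, with a median of 0.40). Ereg, the ligand epiregulin, was at 107 and 108 CPM on glass and 256 and 262 CPM on 1 kPa (log2 fold change 1.27, SE 0.06). Its receptor Egfr was at 61.5 and 62.5 CPM on glass and 128 and 126 CPM on 1 kPa (log2 fold change 1.04, SE 0.06). The 1 that fell was Hbegf, a heparin-binding ligand of the same receptor, at 43.2 and 45.1 CPM on glass and 32.9 and 31.3 CPM on 1 kPa (log2 fold change -0.46, SE 0.08). Lrig1, which marks EGFR for degradation, was at 77.3 and 73.0 CPM on glass and 177 and 172 CPM on 1 kPa (log2 fold change 1.22, SE 0.06), so the receptor, a ligand and a negative regulator rose together. Among other receptor kinases, Ntrk2, the receptor of the neurotrophin BDNF, was at 2.54 and 2.15 CPM on glass and 39.96 and 37.8 CPM on 1 kPa (log2 fold change 4.04, SE 0.13, adjusted p = 5.0e-21), a 16.4-fold rise. Hgf, the ligand of MET, was at 10.6 and 15.2 CPM on glass and 32.1 and 29.0 CPM on 1 kPa (log2 fold change 1.26, SE 0.12). Ddr1, a kinase that binds collagen, fell from 239.7 and 215 CPM to 139 and 141 CPM (log2 fold change -0.70, SE 0.06).

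Insulin-like growth factors act through IGF1R and are held by binding proteins that proteases cut. Of 20 genes of this axis 12 rose and 6 fell, with a median of 0.61; with the stricter filter, 11 of 16 were higher and 5 lower, with a median of 0.87. The ligand Igf1 was at 7.35 and 9.51 CPM on glass and 85.1 and 85.7 CPM on 1 kPa (log2 fold change 3.36, SE 0.09, adjusted p = 9.9e-23). The binding protein Igfbp3 was at 23.7 and 22.6 CPM on glass and 197 and 194 CPM on 1 kPa (log2 fold change 3.08, SE 0.07). Igfbp4 was at 1326 and 1202 CPM on glass and 3163 and 3136 CPM on 1 kPa (log2 fold change 1.32, SE 0.06) and Igfbp7 at 384 and 388 CPM on glass and 1142 and 1079.6 CPM on 1 kPa (log2 fold change 1.52, SE 0.06). The pappalysin Pappa2, which cuts IGF-binding proteins, was at 4.11 and 3.13 CPM on glass and 19.9 and 21.6 CPM on 1 kPa (log2 fold change 2.50, SE 0.13). Stc1, the stanniocalcin that blocks pappalysins, was at 16.6 and 18.97 CPM on glass and 117 and 116 CPM on 1 kPa (log2 fold change 2.72, SE 0.08). Of the genes that fell, 3 did so at least 2-fold. They were the binding protein Igfbp6, at 73.6 and 67.0 CPM on glass and 30.8 and 28.4 CPM on 1 kPa (log2 fold change -1.25, SE 0.08), the insulin receptor substrate Irs1, at 100 and 92.0 CPM on glass and 48.3 and 44.6 CPM on 1 kPa (log2 fold change -1.05, SE 0.07; 30.9% of its exonic bases are shared with another gene), and Igf2bp1, a protein that binds RNA, at 2.45 and 2.03 CPM on glass and 0.877 and 0.448 CPM on 1 kPa (log2 fold change -1.73, SE 0.40).

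Wnt signals are caught outside the cell by secreted antagonists. Of 43 tested Wnt genes (of 50 listed), 26 rose and 8 fell, with a median of 0.58; with the stricter filter, 20 of 32 were higher and 8 lower, with a median of 0.50. The antagonist Wif1 was at 1.90 and 1.86 CPM on glass and 28.3 and 27.1 CPM on 1 kPa (log2 fold change 3.88, SE 0.14, adjusted p = 8.2e-20). The secreted Frizzled-related antagonist Sfrp1 was at 126 and 124 CPM on glass and 283 and 290.1 CPM on 1 kPa (log2 fold change 1.20, SE 0.06), and Sfrp2 at 30.1 and 28.4 CPM on glass and 84.9 and 78.3 CPM on 1 kPa (log2 fold change 1.48, SE 0.07). In Sfrp2 16.1% of the exonic bases overlap another gene. The antagonist Dkk3 moved the opposite way, at 261 and 249 CPM on glass and 133 and 135 CPM on 1 kPa (log2 fold change -0.93, SE 0.06). Of the receptors, Fzd9 was at 3.93 and 2.55 CPM on glass and 26.5 and 26.6 CPM on 1 kPa (log2 fold change 3, SE 0.14) and Fzd1 at 199 and 190.0 CPM on glass and 421 and 419 CPM on 1 kPa (log2 fold change 1.11, SE 0.06). Antagonists and receptors were both among the genes that rose.

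The TGF-beta superfamily list had 18 genes that rose and 6 that fell of 33 tested (median 0.53; with the stricter filter, 17 of 30 were higher and 5 lower, with a median of 0.47). Tgfb1, the main ligand, was at 36.6 and 30.5 CPM on glass and 95.03 and 91.7 CPM on 1 kPa (log2 fold change 1.47, SE 0.08, adjusted p = 9.2e-16). Its type II receptor Tgfbr2 was at 544 and 491 CPM on glass and 254 and 265 CPM on 1 kPa (log2 fold change -0.997, SE 0.06), so ligand and receptor moved in opposite directions. Ltbp2 and Ltbp3 belong to a family named for binding latent TGF-beta, though not every member does so. Ltbp2 was at 671 and 634 CPM on glass and 1543 and 1530.0 CPM on 1 kPa (log2 fold change 1.24, SE 0.06). Ltbp3 was at 354 and 321 CPM on glass and 649 and 650.0 CPM on 1 kPa (log2 fold change 0.94, SE 0.06). Inhba, whose protein forms activin A, was at 109 and 119 CPM on glass and 251 and 243 CPM on 1 kPa (log2 fold change 1.12, SE 0.06). Fst, the follistatin that binds activin, was at 71.3 and 71.2 CPM on glass and 177 and 181 CPM on 1 kPa (log2 fold change 1.33, SE 0.06).

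BMPs are restrained by secreted antagonists that are themselves BMP targets in many tissues. Of 29 tested genes 17 rose and 1, the antagonist Chrd, fell (median 0.47; with the stricter filter, 15 of 22 were higher and 1 lower, with a median of 0.34). Grem1, or gremlin 1, was at 251 and 246 CPM on glass and 883 and 895 CPM on 1 kPa (log2 fold change 1.84, SE 0.06, adjusted p = 4.9e-21), and Nog, or noggin, at 11.3 and 10.8 CPM on glass and 33.8 and 30.4 CPM on 1 kPa (log2 fold change 1.54, SE 0.10). These 2 antagonists rose together with the ligand Bmp2, which was at 0.509 and 0.406 CPM on glass and 6.29 and 7.29 CPM on 1 kPa (log2 fold change 3.85, SE 0.29). Id3, a target that blocks helix-loop-helix factors, was at 252 and 265 CPM on glass and 491 and 479 CPM on 1 kPa (log2 fold change 0.91, SE 0.06). Bmp1, in spite of its name a protease that trims procollagens, was at 298 and 269 CPM on glass and 659.5 and 620.5 CPM on 1 kPa (log2 fold change 1.17, SE 0.06).

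Smaller or mixed movements were seen in the Notch and Hedgehog pathways. In the Notch list 8 of 18 rose and 4 fell, and with the stricter filter the median changed sign, from 0.11 to -0.07; without glass replicate 2, 4 rose. The receptor Notch1 was at 45.4 and 43.8 CPM on glass and 34.3 and 35.0 CPM on 1 kPa (log2 fold change -0.36, SE 0.08) and the pathway's DNA-binding factor Rbpj at 209.5 and 199 CPM on glass and 160.0 and 174 CPM on 1 kPa (log2 fold change -0.29, SE 0.06). In the Hedgehog list 5 of 15 rose and 1 fell (median 0.15; with the stricter filter, 7 of 13 were higher and 0 lower, with a median of 0.18). Hhip, which sequesters Hedgehog ligands, was at 5.96 and 7.31 CPM on glass and 25.1 and 28.6 CPM on 1 kPa (log2 fold change 2.03, SE 0.12). The receptor Ptch1, also a target of the pathway, was at 24.7 and 26.5 CPM on glass and 51.5 and 49.1 CPM on 1 kPa (log2 fold change 0.98, SE 0.08). Gas1, a co-receptor, was at 356 and 354 CPM on glass and 607 and 584 CPM on 1 kPa (log2 fold change 0.75, SE 0.06), and 19.9% of its exonic bases overlap another gene.

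Genes of cell guidance were first known from growing axons but act in many tissues. Of 22 slits, robos, netrins and receptors, 15 rose and 4 fell (median 0.85; with the stricter filter, 11 of 16 were higher and 4 lower, with a median of 0.79). Draxin, a secreted repellent that binds netrin receptors, was at 15.8 and 16.9 CPM on glass and 193 and 185 CPM on 1 kPa (log2 fold change 3.54, SE 0.07, adjusted p = 6.9e-26), an 11.6-fold rise. Ntn1, or netrin 1, was at 89.3 and 92.2 CPM on glass and 252 and 251 CPM on 1 kPa (log2 fold change 1.47, SE 0.06). Its receptors Unc5b and Neo1 rose as well: Unc5b was at 114 and 117 CPM on glass and 245 and 240.3 CPM on 1 kPa (log2 fold change 1.07, SE 0.06). Neo1 was at 118 and 113 CPM on glass and 221 and 216 CPM on 1 kPa (log2 fold change 0.92, SE 0.06). The ligand Slit2 was at 197 and 189 CPM on glass and 317 and 325 CPM on 1 kPa (log2 fold change 0.73, SE 0.06), and Slit3 at 224 and 219 CPM on glass and 395 and 378 CPM on 1 kPa (log2 fold change 0.80, SE 0.06).

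Semaphorins and their plexin receptors were mixed: 13 of 30 rose and 8 fell, with a median of 0.46 that became -0.02 with the stricter filter. Plxnd1, a receptor of class 3 semaphorins, was at 32.5 and 32.8 CPM on glass and 112 and 112 CPM on 1 kPa (log2 fold change 1.78, SE 0.07). Sema6d was at 15.1 and 18.97 CPM on glass and 54.5 and 51.1 CPM on 1 kPa (log2 fold change 1.64, SE 0.10), and Nrp2, a co-receptor for semaphorins and VEGFs, at 201.6 and 199 CPM on glass and 293 and 277 CPM on 1 kPa (log2 fold change 0.51, SE 0.06). Among Eph receptors and ephrins 9 of 18 rose and 4 fell (median 0.28; with the stricter filter, 7 of 15 were higher and 4 lower, with a median of 0.17). Epha7 was at 3.01 and 2.26 CPM on glass and 20.4 and 16.8 CPM on 1 kPa (log2 fold change 2.80, SE 0.16) and Epha4 at 13.04 and 13.7 CPM on glass and 39.2 and 35.1 CPM on 1 kPa (log2 fold change 1.48, SE 0.10). Epha2 was at 105 and 96.6 CPM on glass and 73.5 and 70.1 CPM on 1 kPa (log2 fold change -0.49, SE 0.07) and the ligand Efnb2 at 90.2 and 83.2 CPM on glass and 55.6 and 59.5 CPM on 1 kPa (log2 fold change -0.59, SE 0.07). The 2 receptors with the lower levels on glass rose, and Epha2 and Efnb2 fell.

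Families of cell-to-cell adhesion moved in different directions. Of 29 tested adhesion molecules of the immunoglobulin superfamily 19 rose and 4 fell, with a median of 1.20; with the stricter filter, 17 of 23 were higher and 3 lower, with a median of 1.22. Chl1, of the L1 family, was at 9.02 and 10.7 CPM on glass and 109 and 90.1 CPM on 1 kPa (log2 fold change 3.35, SE 0.11, adjusted p = 4.3e-21), while L1cam itself was at 34.4 and 27.7 CPM on glass and 10.5 and 11.5 CPM on 1 kPa (log2 fold change -1.501, SE 0.11). Cadm2, a synaptic adhesion molecule, was at 1.34 and 1.16 CPM on glass and 14.3 and 13.2 CPM on 1 kPa (log2 fold change 3.44, SE 0.19). Alcam, the ligand of CD6, was at 12.3 and 14.4 CPM on glass and 54.1 and 49.6 CPM on 1 kPa (log2 fold change 1.97, SE 0.10). Islr, a secreted leucine-rich protein of mesenchymal stromal cells also called meflin, was at 18.7 and 20.01 CPM on glass and 74.4 and 72.9 CPM on 1 kPa (log2 fold change 1.93, SE 0.08).

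Of 70 tested cadherins and protocadherins 37 rose and 6 fell (median 0.64; with the stricter filter, 23 of 38 were higher and 4 lower, with a median of 0.45). Of these, 43 are clustered protocadherins, of which 22 rose and none fell, with a median of 0.50. Members of the alpha and gamma clusters share their last exons within each cluster, so separate counts are uncertain. Outside the clusters, Dchs1, a giant cadherin of tissue polarity, was at 3.19 and 2.67 CPM on glass and 22.7 and 22.2 CPM on 1 kPa (log2 fold change 2.92, SE 0.14). Cdh13, which lacks a cytoplasmic tail, was at 36.7 and 34.1 CPM on glass and 90.3 and 93.9 CPM on 1 kPa (log2 fold change 1.38, SE 0.07), and Cdh11, the cadherin typical of fibroblasts, at 154 and 162 CPM on glass and 372 and 353 CPM on 1 kPa (log2 fold change 1.20, SE 0.06). N-cadherin moved the other way: Cdh2 was at 104 and 102 CPM on glass and 51.0 and 50.9 CPM on 1 kPa (log2 fold change -1.01, SE 0.07). Pcdh19, its partner in some tissues, was at 163 and 170.1 CPM on glass and 92.6 and 87.3 CPM on 1 kPa (log2 fold change -0.89, SE 0.06).

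Desmosomes and tight junctions hold epithelial cells together. Of 9 tested desmosome proteins (of 17 listed), none rose and 5 fell, with a median of -0.54; without 1 kPa replicate 2, 3 fell. Pkp1, or plakophilin 1, was at 41.3 and 34.6 CPM on glass and 6.97 and 6.39 CPM on 1 kPa (log2 fold change -2.51, SE 0.12, adjusted p = 2.4e-17). Ppl, or periplakin, was at 38.3 and 31.4 CPM on glass and 12.3 and 10.4 CPM on 1 kPa (log2 fold change -1.61, SE 0.11), and Jup, or plakoglobin, at 47.8 and 39.8 CPM on glass and 23.5 and 22.2 CPM on 1 kPa (log2 fold change -0.94, SE 0.09). The 15 keratinocyte markers summed to 101 to 109 CPM on glass and 47.5 to 53.1 CPM on 1 kPa, with 4 of 8 tested lower and 1 higher. Perp, whose levels are given below, made up most of this sum on glass. Its own fall was larger than that of the sum, so the sum does not show a fall of the other markers together. Trp63, a transcription factor, was the marker that rose. It was at 9.80 and 12.4 CPM on glass and 22.1 and 24.4 CPM on 1 kPa (log2 fold change 1.08), and its call was not followed under the alternatives. The 4 that fell were Perp, a desmosome-associated membrane protein, at 74.7 and 78.1 CPM on glass and 15.8 and 18.6 CPM on 1 kPa (log2 fold change -2.16, SE 0.09), and the keratins Krt5, with 52 and 51 counts on glass and 2 and 3 on 1 kPa, Krt14, with 59 and 61 and 10 and 15, and Krt6a, with 20 and 15 and 3 and 5. The call of Krt6a was lost with DESeq2 and without 1 kPa replicate 1. Krt1 and Krt15 had at most 1 count in any library. The markers' part in the fall of these desmosome genes was not tested. Of 24 connexins, claudins and tight junction proteins 9 rose and 9 fell (5 rose without 1 kPa replicate 1). Tjp1, the scaffold ZO-1, was at 173 and 167 CPM on glass and 110.0 and 107 CPM on 1 kPa (log2 fold change -0.64, SE 0.06). Cldn19 was at 11.6 and 11.7 CPM on glass and 2.49 and 2.86 CPM on 1 kPa (log2 fold change -2.13, SE 0.17). Gja1, or connexin 43, the main gap junction protein of fibroblasts, rose from 159.7 and 148 CPM to 203 and 206 CPM (log2 fold change 0.41, SE 0.06).

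**Figure D2:**
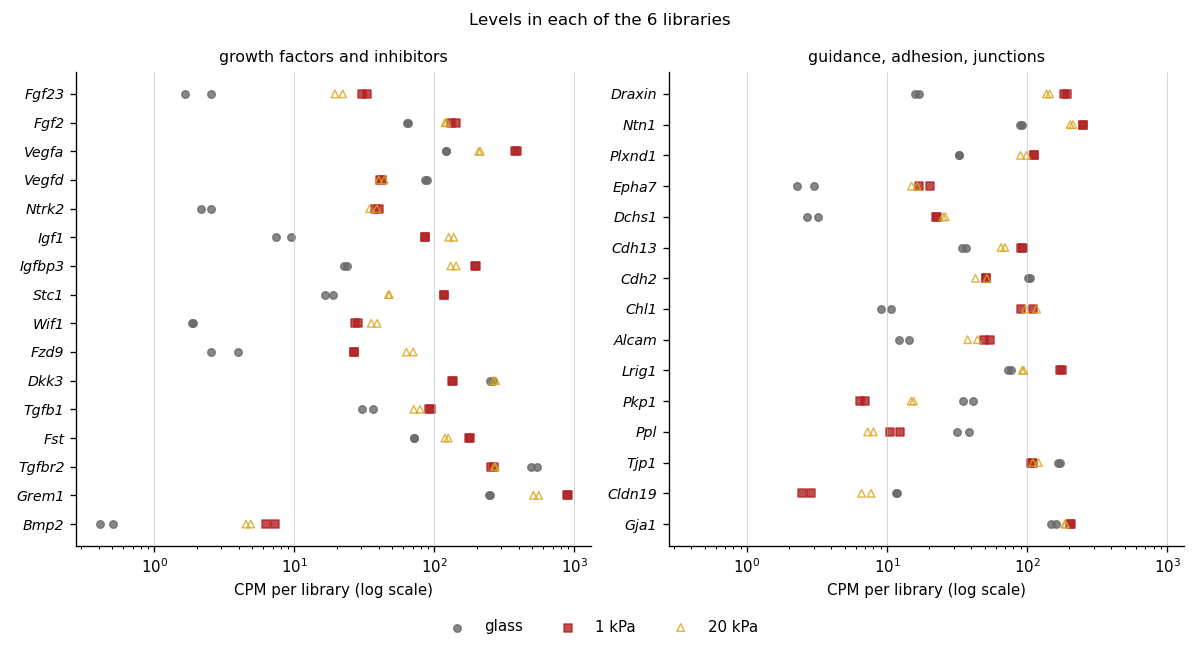
Level in each of the 6 libraries (horizontal axis, CPM, log scale; circles glass, squares 1 kPa, open triangles 20 kPa) of 16 growth factor genes on the left and 15 guidance, adhesion and junction genes on the right. The 2 libraries on 1 kPa lie apart from the 2 on glass for each gene, from Draxin, which is far to the right on 1 kPa, to Pkp1, which is far to the left. Of the 16093 tested genes, 5823 were separated in this way with 1 kPa higher and 5606 with 1 kPa lower.

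Among proteins that organise the matrix, the small leucine-rich proteoglycans bind collagen fibrils and set their spacing. Of 16 tested, 10 rose and 3 fell (median 0.53; with the stricter filter, 7 of 12 were higher and 3 lower, with a median of 0.38). Lum, or lumican, was at 40.5 and 51.1 CPM on glass and 982 and 894 CPM on 1 kPa (log2 fold change 4.36, SE 0.08, adjusted p = 6.6e-27). Bgn, or biglycan, was at 3287 and 2996 CPM on glass and 5322 and 5465 CPM on 1 kPa (log2 fold change 0.78, SE 0.07), and Fmod, or fibromodulin, at 56.2 and 49.8 CPM on glass and 80.3 and 85.0 CPM on 1 kPa (log2 fold change 0.64, SE 0.07). Ogn, or osteoglycin, fell from 203 and 272 CPM to 72.6 and 64.5 CPM (log2 fold change -1.79, SE 0.09), so members of a single family moved by large steps in both directions. Elastic fibre proteins had 10 that rose and 7 that fell of 21 (median 0.47; with the stricter filter, 9 of 18 were higher and 5 lower, with a median of 0.26). Eln, or elastin, was at 24.6 and 23.7 CPM on glass and 175 and 165 CPM on 1 kPa (log2 fold change 2.81, SE 0.07). The microfibril proteins Mfap2 and Mfap4 rose with it: Mfap2 was at 7.03 and 7.31 CPM on glass and 34.6 and 35.8 CPM on 1 kPa (log2 fold change 2.30, SE 0.10). Mfap4 was at 5.46 and 3.89 CPM on glass and 20.5 and 20.4 CPM on 1 kPa (log2 fold change 2.11, SE 0.13).

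The enzymes that hydroxylate and crosslink collagen were split, with 13 that rose and 7 that fell of 29 and a median of 0.05. The lysyl oxidase Loxl2 was at 65.7 and 65.3 CPM on glass and 173 and 164 CPM on 1 kPa (log2 fold change 1.36, SE 0.06), whereas Loxl4 was at 276 and 267 CPM on glass and 103 and 110.0 CPM on 1 kPa (log2 fold change -1.35, SE 0.07). The prolyl hydroxylase subunit P4ha2 was at 134 and 124 CPM on glass and 287 and 296 CPM on 1 kPa (log2 fold change 1.17, SE 0.06). The lysyl hydroxylases Plod1 and Plod2 rose in parallel: Plod1 was at 164 and 153 CPM on glass and 342 and 347 CPM on 1 kPa (log2 fold change 1.12, SE 0.06). Plod2 was at 67.1 and 69.4 CPM on glass and 142 and 145 CPM on 1 kPa (log2 fold change 1.08, SE 0.06). Hyaluronan is a sugar polymer of the matrix; its synthase Has2 was at 28.4 and 29.5 CPM on glass and 82.6 and 82.5 CPM on 1 kPa (log2 fold change 1.51, SE 0.07) and Cemip2, a gene linked to its breakdown, at 41.2 and 41.0 CPM on glass and 101 and 103 CPM on 1 kPa (log2 fold change 1.32, SE 0.07). Sulf2, which trims heparan sulfate and so tunes growth factor binding, was at 177 and 158 CPM on glass and 73.9 and 78.1 CPM on 1 kPa (log2 fold change -1.14, SE 0.06). In the list of 47 hyaluronan and glycosaminoglycan enzymes 19 rose and 10 fell, with a median of 0.07.

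Of 36 ADAM and ADAMTS proteases 17 rose and 10 fell (median 0.51; with the stricter filter, 16 of 27 were higher and 8 lower, with a median of 0.54). Adamts7, which cuts cartilage oligomeric matrix protein, was at 12.3 and 13.9 CPM on glass and 64.3 and 62.8 CPM on 1 kPa (log2 fold change 2.29, SE 0.09). The aggrecanases Adamts1 and Adamts5 rose by less: Adamts1 was at 119.9 and 109.6 CPM on glass and 328 and 319 CPM on 1 kPa (log2 fold change 1.49, SE 0.06). Adamts5 was at 146 and 146 CPM on glass and 321 and 298 CPM on 1 kPa (log2 fold change 1.08, SE 0.06). Serpins, inhibitors of serine proteases, moved both ways, with 8 that rose and 6 that fell of 21. Serping1, the C1 inhibitor, was at 53.5 and 50.8 CPM on glass and 393 and 403 CPM on 1 kPa (log2 fold change 2.93, SE 0.06, adjusted p = 1.6e-25), and Serpine2, an inhibitor of thrombin, at 117 and 109 CPM on glass and 403 and 432 CPM on 1 kPa (log2 fold change 1.88, SE 0.06). Serpinf1, which codes for the vessel inhibitor PEDF, was at 433 and 408 CPM on glass and 1270.5 and 1229 CPM on 1 kPa (log2 fold change 1.57, SE 0.06). Among cathepsins and cystatins 10 of 14 rose and 3 fell. Ctsk, the collagen-cutting cathepsin K, was at 88.5 and 103 CPM on glass and 183 and 164 CPM on 1 kPa (log2 fold change 0.86, SE 0.07).

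**Figure D3:**
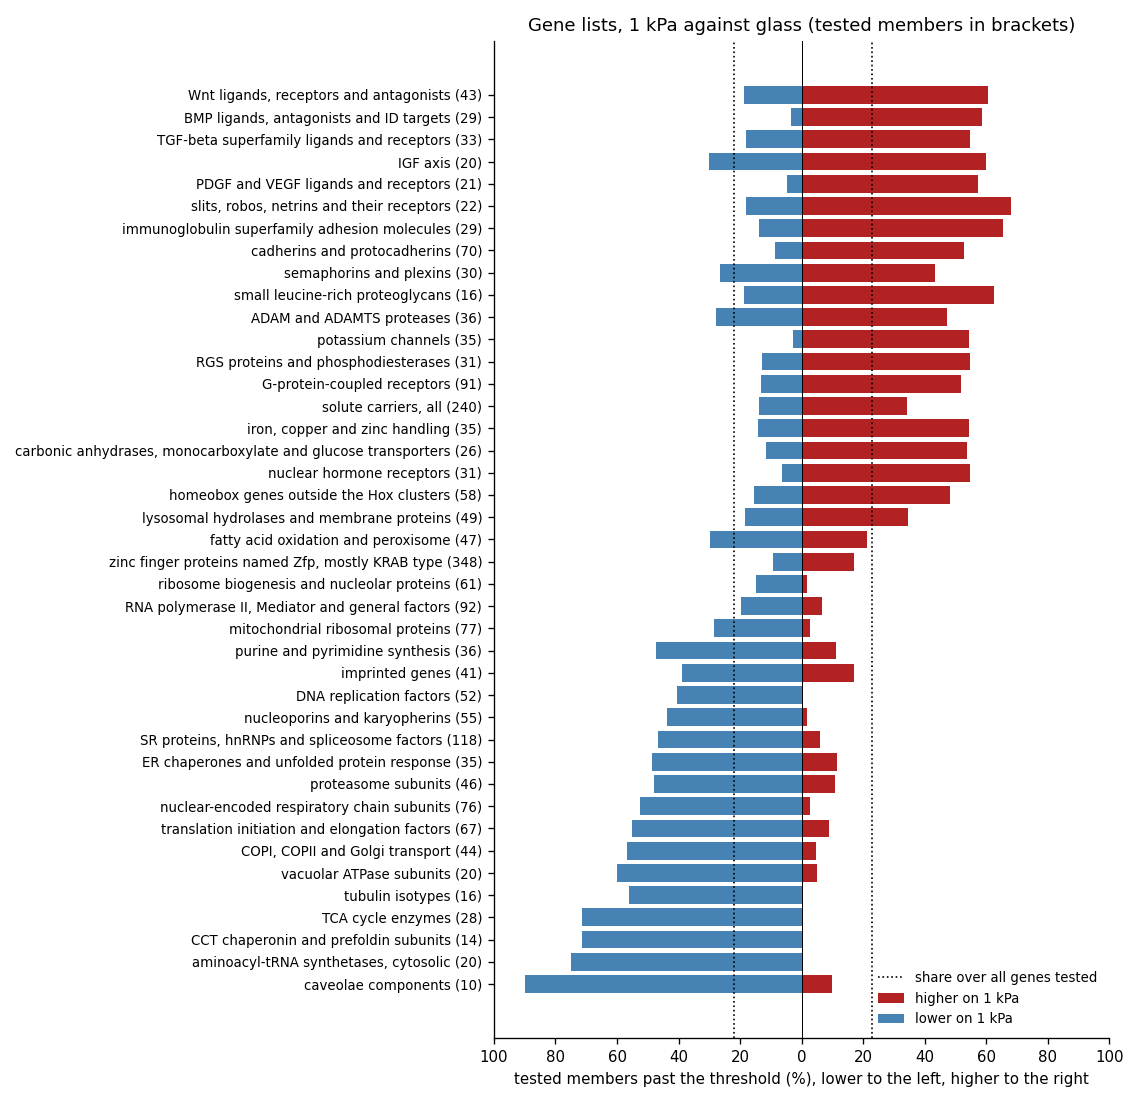
Share of the tested members of 41 gene lists that were lower (bars to the left) and higher (bars to the right) on 1 kPa than on glass at an adjusted p under 0.05, with the number tested in brackets. Dotted lines mark the shares over all tested genes, 22.0% lower and 23.0% higher, which are not matched for level. Lists of signals, receptors and transport lean to the right and lists of the cell's basic machinery to the left. Of the 2682 protein-coding genes with the highest mean levels, 44.5% were lower and 24.6% higher.

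In metabolism, 5 lists had more rises than falls. They were 3 with transporters of sugars, acids, metals and amino acids, that of retinoid genes, and that of aldehyde dehydrogenases and cytochromes P450, where 13 of 42 rose and 7 fell with a median of -0.07. In this last list the excess of rises was lost with the stricter filter, under which 5 of 25 were higher and 6 lower, with a median of -0.04. Carbonic anhydrases and monocarboxylate carriers remove the acid that glycolysis makes. Of 26 tested genes for these and for glucose transporters, 14 rose and 3 fell (median 0.35; with the stricter filter, 11 of 17 were higher and 3 lower, with a median of 0.49). Car9, the carbonic anhydrase on the cell surface, was at 18.96 and 18.3 CPM on glass and 164 and 171 CPM on 1 kPa (log2 fold change 3.17, SE 0.07, adjusted p = 5.6e-25). The lactate carriers Slc16a1 and Slc16a3 were both higher: Slc16a1 was at 57.4 and 53.9 CPM on glass and 209 and 205 CPM on 1 kPa (log2 fold change 1.89, SE 0.06). Slc16a3 was at 104 and 95.6 CPM on glass and 324 and 311 CPM on 1 kPa (log2 fold change 1.67, SE 0.06). The glucose transporter Slc2a1 was at 148 and 144 CPM on glass and 229 and 238 CPM on 1 kPa (log2 fold change 0.68, SE 0.06). Bnip3, a mitophagy receptor, was at 56.0 and 58.7 CPM on glass and 123 and 123 CPM on 1 kPa (log2 fold change 1.10, SE 0.06), with 22.3% of its exonic bases shared with another gene. Ero1l, the oxidase that makes disulfide bonds, was at 63.4 and 66.4 CPM on glass and 122 and 123 CPM on 1 kPa (log2 fold change 0.92, SE 0.06). Car9, Slc16a3, Slc2a1 and Bnip3 are known as targets of hypoxia-inducible factor in other settings.

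The bases just before the RefSeq starts of 3 of these genes are shown because they hold the core of the hypoxia response element, ACGTG, in capitals; in Car9 it lies on the opposite strand and reads as CACGT. On GRCm38.p6 they lie at chr4:43506966-43507025 on the plus strand (Car9), chr11:120949007-120949066 on the plus strand (Slc16a3) and chr4:119108685-119108744 on the plus strand (Slc2a1). The match begins 18 bases before the start in Car9, 27 and 14 in Slc16a3 and 36 in Slc2a1. By GENCODE bounds Car9 and Slc16a3 begin at or before these stretches, and Slc2a1 within its own. Such a core is common, being found on either strand within 250 bases before the start in 16.6% of the 32851 promoters of the table, and a match is not evidence of binding.
Car9: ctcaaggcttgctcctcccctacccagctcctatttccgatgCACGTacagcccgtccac
Slc16a3: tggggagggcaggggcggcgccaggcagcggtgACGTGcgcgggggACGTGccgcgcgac
Slc2a1: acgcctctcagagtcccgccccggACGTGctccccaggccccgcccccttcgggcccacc

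Of 35 genes of iron, copper and zinc handling 19 rose and 5 fell (median 0.60; with the stricter filter, 17 of 30 were higher and 4 lower, with a median of 0.49). Steap4, a metalloreductase that reduces iron and copper for uptake, was at 13.4 and 12.1 CPM on glass and 325 and 316 CPM on 1 kPa (log2 fold change 4.65, SE 0.08, adjusted p = 1.4e-28), a 25.1-fold rise. Cp, the copper oxidase ceruloplasmin, was at 72.0 and 75.7 CPM on glass and 861 and 835 CPM on 1 kPa (log2 fold change 3.52, SE 0.07). Slc39a14, which imports zinc and iron, was at 172 and 167 CPM on glass and 640.0 and 629 CPM on 1 kPa (log2 fold change 1.90, SE 0.06). The iron carrier Trf was at 82.2 and 72.1 CPM on glass and 1195 and 1219 CPM on 1 kPa (log2 fold change 3.97, SE 0.07), but 63.5% of its exonic bases overlap another gene and its counts are uncertain. The metallothionein Mt1 was at 190.2 and 169 CPM on glass and 467 and 499 CPM on 1 kPa (log2 fold change 1.42, SE 0.06). The ferritin heavy chain Fth1 was at 3630.4 and 3678 CPM on glass and 7012 and 7414 CPM on 1 kPa (log2 fold change 0.98, SE 0.07), and the light chain Ftl1 at 1191 and 1159 CPM on glass and 680.3 and 734 CPM on 1 kPa (log2 fold change -0.73, SE 0.06). Both ferritin chains have near-identical pseudogenes, so the opposite movement of the 2 chains is uncertain.

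Among 25 genes of arginine and polyamine metabolism 7 rose and 7 fell, with a median of -0.04, and a few arginine genes moved by far more than the rest. Slc7a2, an arginine importer, was at 20.4 and 20.5 CPM on glass and 184 and 191 CPM on 1 kPa (log2 fold change 3.20, SE 0.08, adjusted p = 5.6e-24). Nos2, which makes nitric oxide from arginine, had 2 counts in each glass library, 0.0925 and 0.116 CPM, and was at 133 and 129.5 CPM on 1 kPa. Its ratio of counts per library size was 1278 (95% counting interval 499 to 4692). Ass1, which rebuilds arginine from citrulline, was at 199 and 194 CPM on glass and 313 and 309 CPM on 1 kPa (log2 fold change 0.66, SE 0.06). Arg2, the mitochondrial arginase, was at 0.324 and 0.464 CPM on glass and 5.36 and 5.77 CPM on 1 kPa (log2 fold change 3.82, SE 0.33), and 28.1% of its exonic bases overlap another gene. Importer, both consumers and the recycling enzyme were all higher on the gel.

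Of 37 amino acid transporters 16 rose and 5 fell (median 0.21; with the stricter filter, 12 of 23 were higher and 4 lower, with a median of 0.21). Slc7a11, which exchanges cystine for glutamate and feeds glutathione synthesis, was at 2.73 and 3.42 CPM on glass and 17.5 and 18.9 CPM on 1 kPa (log2 fold change 2.58, SE 0.16). Its promoter is shown because it holds the element TTGCATCA, bound by C/EBP and ATF factors, on both strands, in capitals; it reads TGATGCAA on the strand printed where it lies on the other. The stretch lies on GRCm38.p6 at chr3:50443644-50443703 on the minus strand, with the matches 66 and 47 bases before the start, and 0.792% of the 32851 promoters hold such an element.
Slc7a11: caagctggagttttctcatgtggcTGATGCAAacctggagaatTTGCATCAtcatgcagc

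The wider list of ATF4 targets, a factor of the integrated stress response, was split at 10 that rose and 10 that fell of 30, with a median of -0.08. Ddit4, an inhibitor of mTORC1 signalling, was at 68.1 and 75.3 CPM on glass and 192 and 186 CPM on 1 kPa (log2 fold change 1.40, SE 0.06). The serine synthesis enzymes Psat1 and Phgdh fell: Psat1 was at 214 and 217 CPM on glass and 128 and 142 CPM on 1 kPa (log2 fold change -0.67, SE 0.06). Phgdh was at 183 and 187 CPM on glass and 121 and 127 CPM on 1 kPa (log2 fold change -0.58, SE 0.06). Ahcy, which clears the product of methylation reactions, was at 122 and 125 CPM on glass and 77.0 and 78.3 CPM on 1 kPa (log2 fold change -0.67, SE 0.06). Of 20 cytosolic aminoacyl-tRNA synthetases, which load amino acids on to tRNAs, none rose and 15 fell, with a median of -0.21 (stricter filter 0 higher and 14 lower of 20, median -0.18). Gars, for glycine, was at 244 and 239.6 CPM on glass and 162 and 163 CPM on 1 kPa (log2 fold change -0.57, SE 0.06) and Sars, for serine, at 200.4 and 192 CPM on glass and 148 and 152 CPM on 1 kPa (log2 fold change -0.38, SE 0.06). Of 36 purine and pyrimidine synthesis genes 4 rose and 17 fell, with a median of -0.17.

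The lists of mitochondrial energy genes held more members that fell than rose, mostly by small amounts. Of 28 genes of the TCA cycle and enzymes linked to it none rose and 20 fell (median -0.24; stricter filter 0 higher and 18 lower of 27, median -0.22). Acly, which exports citrate carbon to lipid synthesis, was at 417 and 400.1 CPM on glass and 233 and 226 CPM on 1 kPa (log2 fold change -0.83, SE 0.06, adjusted p = 2.4e-13). The isocitrate dehydrogenases Idh1 and Idh2 fell: Idh1 was at 152 and 174 CPM on glass and 85.3 and 79.8 CPM on 1 kPa (log2 fold change -0.98, SE 0.07). Idh2 was at 107 and 103 CPM on glass and 77.1 and 74.8 CPM on 1 kPa (log2 fold change -0.47, SE 0.06). Of 76 respiratory chain subunits encoded in the nucleus 2 rose and 40 fell (median -0.22; stricter filter 3 higher and 36 lower of 73, median -0.19; 26 lower without 1 kPa replicate 2). Atp5b, of the ATP synthase, was at 898 and 884 CPM on glass and 676 and 685 CPM on 1 kPa (log2 fold change -0.39, SE 0.06). Cox4i1, of complex IV, was at 245 and 241 CPM on glass and 183 and 188 CPM on 1 kPa (log2 fold change -0.39, SE 0.06). The 2 that rose were Cox4i2, the alternative isoform of the same subunit, at 0.694 and 0.638 CPM on glass and 2.88 and 1.85 CPM on 1 kPa (log2 fold change 1.82, SE 0.38), and Cyc1, at 83.0 and 82.0 CPM on glass and 90.0 and 94.2 CPM on 1 kPa (log2 fold change 0.16, SE 0.06), whose call did not hold under 7 of the alternatives.

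In the list of fatty acid synthesis, desaturation and storage 13 of 35 rose and 16 fell, with a median of -0.13. The desaturases Scd2 and Fads2 were among those that fell: Scd2 was at 1036 and 958 CPM on glass and 388 and 399.8 CPM on 1 kPa (log2 fold change -1.34, SE 0.06, adjusted p = 7.1e-18). Fads2 was at 138 and 123 CPM on glass and 51.4 and 55.4 CPM on 1 kPa (log2 fold change -1.29, SE 0.07). Among the genes that rose, Lpl, the lipoprotein lipase, was at 169.8 and 173 CPM on glass and 549 and 516 CPM on 1 kPa (log2 fold change 1.64, SE 0.06), and Fabp4, a fatty acid carrier, at 6.10 and 9.05 CPM on glass and 66.9 and 60.5 CPM on 1 kPa (log2 fold change 3.10, SE 0.11). Dgat2, which completes triglycerides, was at 12.1 and 9.86 CPM on glass and 51.9 and 50.4 CPM on 1 kPa (log2 fold change 2.21, SE 0.10). Plin1, which coats lipid droplets, had 7 counts in both glass libraries together and 522 on 1 kPa, a ratio of 75.6 (95% counting interval 36.4 to 189). The 10 adipocyte markers summed to 212 to 224 CPM on glass and 699 to 746 CPM on 1 kPa, with all 6 tested markers higher. Of the defining ones, Lep had no count in any library, Adipoq had 0 counts on glass and 25 and 10 on 1 kPa, and Cidec had 0 on glass and 4 and 5 on 1 kPa. Lpl made up most of the summed level of the adipocyte markers, and Lpl, Fabp4 and Plin1 belong to both lists. The part of the adipocyte markers in the lipid genes was not tested.

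Redox and detoxifying genes also split. Sod2, the superoxide dismutase of mitochondria, was at 75.8 and 76.5 CPM on glass and 470.4 and 480.1 CPM on 1 kPa (log2 fold change 2.64, SE 0.06, adjusted p = 5.2e-25), and Sod3, the secreted form, at 631 and 566 CPM on glass and 1759 and 1798 CPM on 1 kPa (log2 fold change 1.57, SE 0.06). Gpx3, a secreted glutathione peroxidase, was at 349 and 341 CPM on glass and 644 and 659 CPM on 1 kPa (log2 fold change 0.92, SE 0.06). Ephx1, an epoxide hydrolase, fell from 313 and 288 CPM to 109 and 114 CPM (log2 fold change -1.43, SE 0.06). In the list of glutathione and NRF2 target genes 12 of 43 rose and 18 fell. Retinoids act through nuclear receptors and are broken down by CYP26 enzymes. Of 20 retinoid genes 11 rose and 6 fell (median 0.28; with the stricter filter, 10 of 16 were higher and 6 lower, with a median of 0.31). Rbp4, the retinol carrier of plasma, was at 1.02 and 0.812 CPM on glass and 35.9 and 33.5 CPM on 1 kPa (log2 fold change 5.22, SE 0.16). Cyp26b1, which degrades retinoic acid, was at 87.8 and 83.8 CPM on glass and 399.6 and 376 CPM on 1 kPa (log2 fold change 2.17, SE 0.06). Aldh1a7 and Aldh1a1, of the family that makes it, were lower: Aldh1a7 was at 31.3 and 30.6 CPM on glass and 5.56 and 6.11 CPM on 1 kPa (log2 fold change -2.41, SE 0.11). Aldh1a1 was at 16.5 and 17.2 CPM on glass and 7.46 and 8.74 CPM on 1 kPa (log2 fold change -1.06, SE 0.12). Cyp7b1, which hydroxylates oxysterols, was at 5.18 and 8.82 CPM on glass and 93.0 and 87.7 CPM on 1 kPa (log2 fold change 3.72, SE 0.12).

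**Figure D4:**
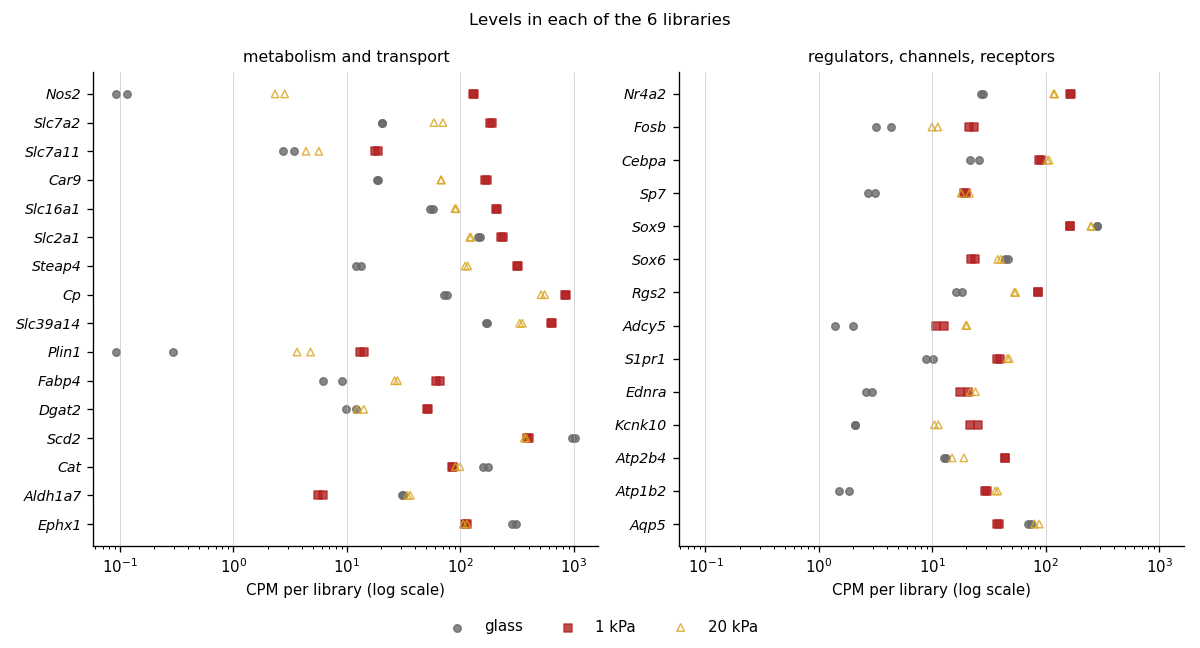
Level in each of the 6 libraries (horizontal axis, CPM, log scale; circles glass, squares 1 kPa, open triangles 20 kPa) of 16 metabolic and transport genes on the left and 14 transcription factors, channels and receptors on the right. Nos2 and Plin1 rest on a few counts on glass; Aldh1a7, Aqp5 and Sox9 are low on 1 kPa with glass and 20 kPa closer together.

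Lists of protein folding and of secretory coats held more genes that fell than rose. Of 35 endoplasmic reticulum chaperones 4 rose and 17 fell (median -0.16; stricter filter 4 higher and 16 lower of 34, median -0.15). Canx, or calnexin, was at 692 and 697 CPM on glass and 501 and 498 CPM on 1 kPa (log2 fold change -0.47, SE 0.06, adjusted p = 2.4e-08), and Dnajc10, a disulfide reductase, at 269 and 279 CPM on glass and 180.1 and 173 CPM on 1 kPa (log2 fold change -0.63, SE 0.06). Of 14 subunits of the CCT chaperonin and prefoldin, which fold actin and tubulin, none rose and 10 fell (median -0.26; stricter filter 0 higher and 9 lower of 14, median -0.24). Cct4 was at 234 and 258 CPM on glass and 190.1 and 188 CPM on 1 kPa (log2 fold change -0.38, SE 0.06). Among 35 cytosolic heat shock chaperones 4 rose and 17 fell. Cryab, a small heat shock protein, was at 103 and 94.9 CPM on glass and 37.1 and 36.2 CPM on 1 kPa (log2 fold change -1.43, SE 0.07), with 17.0% of its exonic bases shared with another gene. Bag3, a co-chaperone that clears damaged cytoskeletal proteins, rose from 135 and 131 CPM to 187 and 193 CPM (log2 fold change 0.52, SE 0.06).

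Of 46 proteasome subunits 5 rose and 22 fell (median -0.17; stricter filter 4 higher and 20 lower of 45, median -0.15). The ones that rose included all 3 catalytic subunits of the immunoproteasome, which shapes peptides for antigen presentation: Psmb8 was at 5.92 and 4.76 CPM on glass and 16.7 and 15.97 CPM on 1 kPa (log2 fold change 1.60, SE 0.14). Psmb9 was at 2.08 and 1.33 CPM on glass and 4.87 and 4.82 CPM on 1 kPa (log2 fold change 1.47, SE 0.24) and Psmb10 at 15.3 and 13.98 CPM on glass and 26.0 and 27.1 CPM on 1 kPa (log2 fold change 0.85, SE 0.10). Psmd14, a deubiquitinase of the lid, was at 81.7 and 90.7 CPM on glass and 67.9 and 63.9 CPM on 1 kPa (log2 fold change -0.38, SE 0.07). The proton pump of lysosomes had 1 subunit that rose and 12 that fell of 20 (median -0.20; stricter filter 0 higher and 10 lower of 16, median -0.17; 7 lower without 1 kPa replicate 2). Atp6v1a, a catalytic subunit, was at 223 and 245 CPM on glass and 162 and 159.5 CPM on 1 kPa (log2 fold change -0.54, SE 0.06). Lysosomal hydrolases and membrane proteins went the other way, with 17 that rose and 9 that fell of 49 (median 0.08; stricter filter 19 higher and 8 lower of 48, median 0.11).

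In the coats that carry cargo between the endoplasmic reticulum and the Golgi 2 of 44 genes rose and 25 fell (median -0.19; stricter filter 2 higher and 24 lower of 44, median -0.17). Copb2, of COPI, was at 309 and 336 CPM on glass and 243 and 231 CPM on 1 kPa (log2 fold change -0.44, SE 0.06) and Sec23a, of COPII, at 180.4 and 196 CPM on glass and 136 and 129 CPM on 1 kPa (log2 fold change -0.50, SE 0.06). Those that rose were Tmed3 and Creb3l1, a transcription factor of secretory capacity, at 28.9 and 28.7 CPM on glass and 58.3 and 56.0 CPM on 1 kPa (log2 fold change 0.99, SE 0.08). Caveolae are flask-shaped pits that flatten when the membrane is stretched. Of 10 components 9 fell and 1 rose (median -0.77; with the stricter filter all 8 fell). Cav1 was at 678 and 731 CPM on glass and 307 and 309.7 CPM on 1 kPa (log2 fold change -1.19, SE 0.06, adjusted p = 1.1e-16), and Cavin2 at 204 and 235 CPM on glass and 111 and 125 CPM on 1 kPa (log2 fold change -0.90, SE 0.07). Ehd2, the ATPase at the neck, was at 474 and 458 CPM on glass and 285 and 299 CPM on 1 kPa (log2 fold change -0.68, SE 0.06). The 1 that rose was the muscle form Cavin4, at 0.601 and 0.754 CPM on glass and 1.75 and 2.02 CPM on 1 kPa (log2 fold change 1.48, SE 0.37).

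The lists of translation, splicing and nuclear transport held more genes that fell than rose. Of 67 initiation and elongation factors 6 rose and 37 fell (median -0.23; stricter filter 6 higher and 34 lower of 62, median -0.20). Eef2 was at 3981 and 3724 CPM on glass and 2742 and 2875 CPM on 1 kPa (log2 fold change -0.46, SE 0.06, adjusted p = 6.1e-07) and Eif4b at 565 and 549 CPM on glass and 380.1 and 406 CPM on 1 kPa (log2 fold change -0.50, SE 0.06). Eef1a1, with many near-identical pseudogenes, was at 8857 and 8817 CPM on glass and 5855 and 6242 CPM on 1 kPa (log2 fold change -0.55, SE 0.07). Eif4e3, a cap-binding variant, was at 7.63 and 8.12 CPM on glass and 21.1 and 23.5 CPM on 1 kPa (log2 fold change 1.5, SE 0.12), an exception that rose. Of 118 splicing and RNA-binding factors 7 rose and 55 fell (median -0.15; stricter filter 8 higher and 43 lower of 111, median -0.12; 36 and 31 lower without 1 kPa replicate 1 or 2). Mbnl1, a splicing regulator of muscle and mesenchymal cells, was at 469.9 and 501 CPM on glass and 281 and 296 CPM on 1 kPa (log2 fold change -0.75, SE 0.06). Rbm3, a cold-induced RNA-binding protein, was at 272 and 351 CPM on glass and 179 and 152 CPM on 1 kPa (log2 fold change -0.91, SE 0.08). Of 55 nucleoporins and karyopherins 1 rose, which was Rcc1, and 24 fell (median -0.15; stricter filter 2 higher and 22 lower of 52, median -0.10; 15 lower without 1 kPa replicate 1). The importins Kpnb1 and Kpna2 fell: Kpnb1 was at 548 and 522 CPM on glass and 398 and 402 CPM on 1 kPa (log2 fold change -0.42, SE 0.06). Kpna2 was at 157 and 174 CPM on glass and 113 and 109 CPM on 1 kPa (log2 fold change -0.58, SE 0.06). Of 61 ribosome biogenesis genes 1, which was Noc4l, rose and 9 fell, with a median of -0.03 (5 fell without either 1 kPa replicate), a share of falls below the 22.0% of all tested genes.

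**Figure D5:**
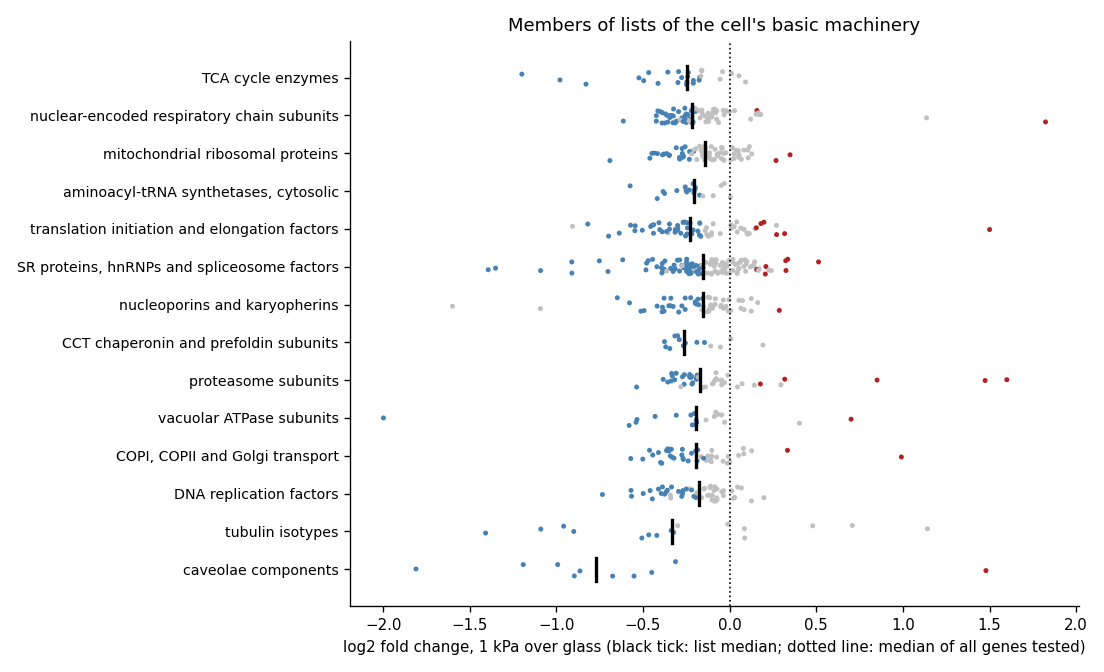
Log2 fold change on 1 kPa over glass (horizontal axis) of every tested member of 14 lists (1 row of points each), coloured where the adjusted p was under 0.05; black ticks mark list medians and the dotted line the median of all tested genes. Medians run from -0.14 for mitochondrial ribosomal proteins to -0.77 for caveolae components.

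The lists of replication, recombination, kinesins and tubulins held more genes that fell than rose. Of 52 DNA replication factors none rose and 21 fell (median -0.18; stricter filter 0 higher and 18 lower of 51, median -0.14). Mcm5, of the replicative helicase, was at 82.1 and 80.3 CPM on glass and 62.1 and 60.0 CPM on 1 kPa (log2 fold change -0.41, SE 0.07), and Rpa1, which coats single-stranded DNA, at 115 and 107 CPM on glass and 85.3 and 84.3 CPM on 1 kPa (log2 fold change -0.39, SE 0.06). Of 43 genes of homologous recombination and the Fanconi pathway 3 rose and 11 fell, with a median of -0.14. The 25.6% that fell is near the 22.0% of all tested genes, and with DESeq2 0 rose and 6 fell. Among kinesins 9 of 37 rose and 19 fell, with a median of -0.21. Kif11, the motor that pushes spindle poles apart, was at 70.8 and 72.5 CPM on glass and 41.9 and 45.2 CPM on 1 kPa (log2 fold change -0.72, SE 0.08, adjusted p = 3.4e-09), and Kif14, of cytokinesis, at 27.3 and 26.1 CPM on glass and 14.5 and 14.8 CPM on 1 kPa (log2 fold change -0.87, SE 0.10). Kif26b, a kinesin linked to non-canonical Wnt signalling, was at 18.96 and 18.5 CPM on glass and 40.7 and 43.2 CPM on 1 kPa (log2 fold change 1.16, SE 0.09) and rose. Cenpa, the centromeric histone, was at 72.4 and 65.0 CPM on glass and 36.2 and 37.3 CPM on 1 kPa (log2 fold change -0.90, SE 0.08), while the linker histone gene Hist1h1c rose from 54.5 and 55.6 CPM to 103 and 103 CPM (log2 fold change 0.91, SE 0.07). Of 16 tubulins none rose and 9 fell (median -0.33; stricter filter 0 higher and 9 lower of 13, median -0.39). Tubb2b was at 109 and 110.1 CPM on glass and 42.2 and 40.4 CPM on 1 kPa (log2 fold change -1.41, SE 0.07) and Tubb2a at 236 and 231 CPM on glass and 119 and 122 CPM on 1 kPa (log2 fold change -0.96, SE 0.06); these isotypes are near-identical and their separate values are uncertain.

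The stretch before the start of Kif11 is shown as an example of a mitotic promoter. It lies on GRCm38.p6 at chr19:37376322-37376381 on the plus strand, with a CCAAT box (on the other strand, read here as ATTGG) 45 bases before the start and the CHR element TTTGAA (read here as TTCAAA) 19 bases before it, both in capitals. On either strand 33.9% of the 32851 promoters hold CCAAT and 15.99% hold TTTGAA, so both matches are common.
Kif11: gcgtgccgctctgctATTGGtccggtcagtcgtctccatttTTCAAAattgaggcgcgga

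Cell death regulators were balanced, with 9 that rose and 9 that fell of 31. Bcl2l1, which codes for the protective BCL-XL, was at 106 and 101 CPM on glass and 62.0 and 61.7 CPM on 1 kPa (log2 fold change -0.75, SE 0.06), and the effector Bax at 151 and 153 CPM on glass and 96.4 and 97.4 CPM on 1 kPa (log2 fold change -0.65, SE 0.06). Bbc3, the p53 target PUMA, was at 30.7 and 29.9 CPM on glass and 17.2 and 16.3 CPM on 1 kPa (log2 fold change -0.86, SE 0.10). Bmf, a BH3 protein held at the actin cytoskeleton in attached cells, rose from 6.57 and 7.13 CPM to 23.1 and 24.2 CPM (log2 fold change 1.79, SE 0.11). Birc3, an inhibitor of apoptosis, was at 24.2 and 23.7 CPM on glass and 68.8 and 64.3 CPM on 1 kPa (log2 fold change 1.48, SE 0.08). Genes for and against cell death were therefore found on both sides.

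Several transcription factor families held more rises than falls. Of 58 homeobox genes outside the Hox clusters 28 rose and 9 fell (median 0.30; with the stricter filter, 19 of 37 were higher and 6 lower, with a median of 0.24), and Zeb2, of the epithelial-mesenchymal transition, was at 62.0 and 71.8 CPM on glass and 130.0 and 122 CPM on 1 kPa (log2 fold change 0.92, SE 0.07). Of 31 nuclear receptors 17 rose and 2 fell (median 0.35; with the stricter filter, 19 of 28 were higher and 1 lower, with a median of 0.37). Nr4a2, an orphan receptor induced as an early gene, was at 28.2 and 27.1 CPM on glass and 167 and 164 CPM on 1 kPa (log2 fold change 2.58, SE 0.07, adjusted p = 1.7e-23), and its relative Nr4a1 at 103 and 99.01 CPM on glass and 249.8 and 245 CPM on 1 kPa (log2 fold change 1.29, SE 0.06). Nr2f1 was at 15.3 and 16.2 CPM on glass and 36.7 and 34.4 CPM on 1 kPa (log2 fold change 1.17, SE 0.09), Nr2f2 at 40.5 and 37.1 CPM on glass and 72.7 and 73.1 CPM on 1 kPa (log2 fold change 0.90, SE 0.07) and Rora at 24.7 and 31.7 CPM on glass and 59.7 and 57.8 CPM on 1 kPa (log2 fold change 1.07, SE 0.09). Among Sox factors 8 of 13 rose and 2 fell (median 0.72; with the stricter filter, 3 of 6 were higher and 2 lower, with a median of 0.23). Those that fell were the cartilage factors Sox9 and Sox6. Sox9 was at 285 and 286 CPM on glass and 164 and 165 CPM on 1 kPa (log2 fold change -0.80, SE 0.06) and Sox6 at 46.2 and 44.0 CPM on glass and 23.9 and 21.8 CPM on 1 kPa (log2 fold change -0.98, SE 0.09). Sox11 was at 8.14 and 9.22 CPM on glass and 23.8 and 24.2 CPM on 1 kPa (log2 fold change 1.47, SE 0.12) and Sox12 at 12.6 and 13.3 CPM on glass and 34.6 and 39.0 CPM on 1 kPa (log2 fold change 1.51, SE 0.10); both are known from neural progenitors.

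Cartilage matrix genes moved in both directions. Col2a1, the collagen of cartilage, was at 153 and 133 CPM on glass and 281 and 268 CPM on 1 kPa (log2 fold change 0.94, SE 0.06), and Col11a2 at 12.9 and 11.8 CPM on glass and 114 and 102 CPM on 1 kPa (log2 fold change 3.12, SE 0.08). Col11a1 fell from 365 and 344 CPM to 245 and 236 CPM (log2 fold change -0.56, SE 0.06), and Cnmd, or chondromodulin, from 30.5 and 28.9 CPM to 21.1 and 18.8 CPM (log2 fold change -0.57, SE 0.09). Of 13 tested chondrocyte markers 8 rose and 3 fell. The 14 listed summed to 964 to 1026 CPM on glass and 1206 to 1243 CPM on 1 kPa; their part in other results was not tested.

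Of 21 T-box, GATA, RUNX and TWIST factors 11 rose and 5 fell (median 0.49; with the stricter filter, 7 of 15 were higher and 4 lower, with a median of 0.19). Runx1 was at 96.5 and 88.4 CPM on glass and 171 and 169.6 CPM on 1 kPa (log2 fold change 0.88, SE 0.06). Sp7, or osterix, a bone factor, was at 3.14 and 2.73 CPM on glass and 19.1 and 19.8 CPM on 1 kPa (log2 fold change 2.71, SE 0.15), and Scx, the tendon factor scleraxis, fell from 45.0 and 50.3 CPM to 28.2 and 26.9 CPM (log2 fold change -0.79, SE 0.08). Tead4, a DNA-binding partner of YAP, was at 23.9 and 23.1 CPM on glass and 10.8 and 11.1 CPM on 1 kPa (log2 fold change -1.10, SE 0.11). The Krueppel-like factors had 6 that rose and 9 that fell of 21: Klf4 was at 145 and 129 CPM on glass and 81.8 and 79.8 CPM on 1 kPa (log2 fold change -0.76, SE 0.06). Klf3 was at 176 and 171 CPM on glass and 84.5 and 90.1 CPM on 1 kPa (log2 fold change -0.99, SE 0.06). Among C/EBP, PPAR and other adipogenic regulators 11 of 21 rose and 3 fell (median 0.39; with the stricter filter, 9 of 15 were higher and 3 lower, with a median of 0.26). Cebpa was at 21.6 and 25.6 CPM on glass and 91.0 and 87.1 CPM on 1 kPa (log2 fold change 1.92, SE 0.08) and Pparg, the master regulator of fat cells, at 14.7 and 15.8 CPM on glass and 23.2 and 21.1 CPM on 1 kPa (log2 fold change 0.54, SE 0.10).

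Of 22 genes of the AP-1 family 8 rose and 6 fell, with a median of 0.07 that became -0.03 with the stricter filter. Fosb was at 3.19 and 4.29 CPM on glass and 20.95 and 23.4 CPM on 1 kPa (log2 fold change 2.58, SE 0.15). Zinc finger genes named Zfp, a family mostly of KRAB repressors, stayed near the median of all genes: 59 of 348 rose and 32 fell, with a median of 0.03 (37 and 38 rose without 1 kPa replicate 1 or 2).

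Signalling through cyclic nucleotides and G-protein-coupled receptors shifted in many members. Of 91 tested receptors (of 167 listed) 47 rose and 12 fell (median 0.47; with the stricter filter, 29 of 50 were higher and 9 lower, with a median of 0.33). S1pr1 and S1pr3, receptors of the lipid sphingosine 1-phosphate, were higher: S1pr1 was at 10.1 and 8.82 CPM on glass and 39.6 and 37.5 CPM on 1 kPa (log2 fold change 2.02, SE 0.10, adjusted p = 9.0e-17). S1pr3 was at 108 and 98.6 CPM on glass and 241 and 243 CPM on 1 kPa (log2 fold change 1.22, SE 0.06). The vasopressin receptor Avpr1a was at 24.5 and 28.5 CPM on glass and 103 and 97.4 CPM on 1 kPa (log2 fold change 1.93, SE 0.08), the endothelin receptor Ednra at 2.96 and 2.61 CPM on glass and 20.5 and 17.6 CPM on 1 kPa (log2 fold change 2.77, SE 0.15) and the prostacyclin receptor Ptgir at 14.3 and 13.5 CPM on glass and 45.4 and 44.8 CPM on 1 kPa (log2 fold change 1.70, SE 0.10). F2rl1, the protease-activated receptor PAR2, moved the other way, at 24.1 and 25 CPM on glass and 6.24 and 7.45 CPM on 1 kPa (log2 fold change -1.85, SE 0.12).

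Inside the cell, Rgs2 and Rgs16, which switch off G proteins, rose: Rgs2 was at 16.2 and 18.4 CPM on glass and 86.0 and 85.8 CPM on 1 kPa (log2 fold change 2.32, SE 0.08). Rgs16 was at 11.5 and 13.1 CPM on glass and 44.4 and 46.3 CPM on 1 kPa (log2 fold change 1.89, SE 0.10). The adenylate cyclase Adcy5, which makes cyclic AMP, was at 1.99 and 1.39 CPM on glass and 12.6 and 10.8 CPM on 1 kPa (log2 fold change 2.77, SE 0.18). Pde4b, which degrades it, was at 50.9 and 51.8 CPM on glass and 108 and 102 CPM on 1 kPa (log2 fold change 1.03, SE 0.07), and Pde1a at 15.3 and 16.4 CPM on glass and 55.6 and 52.0 CPM on 1 kPa (log2 fold change 1.77, SE 0.09). Akap12, a scaffold for protein kinase A, was at 86.7 and 90.1 CPM on glass and 36.6 and 32.2 CPM on 1 kPa (log2 fold change -1.36, SE 0.08). Of 31 RGS proteins and phosphodiesterases 17 rose and 4 fell (median 0.82; with the stricter filter, 11 of 22 were higher and 3 lower, with a median of 0.34). Of 26 genes that respond to or restrain ERK 15 rose and 8 fell (median 0.36; with the stricter filter, 14 of 24 were higher and 7 lower, with a median of 0.34). Ier3 was at 118 and 114 CPM on glass and 225 and 229 CPM on 1 kPa (log2 fold change 0.96, SE 0.06) and Etv1, an ETS factor, at 10.1 and 7.83 CPM on glass and 34.0 and 32.3 CPM on 1 kPa (log2 fold change 1.87, SE 0.11). Dusp8, a phosphatase of JNK and p38 kinases, was at 22.1 and 24.3 CPM on glass and 7.41 and 11.5 CPM on 1 kPa (log2 fold change -1.30, SE 0.14).

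Tnfrsf21, or death receptor 6, was at 11.4 and 10.3 CPM on glass and 72.7 and 69.0 CPM on 1 kPa (log2 fold change 2.701, SE 0.09); in its superfamily 5 of 15 rose and 3 fell.

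Ion channel genes moved by family. Of 35 tested potassium channels (of 92 listed) 19 rose and 1 fell, with a median of 1.04; with the stricter filter, 7 of 12 were higher and 1 lower, with a median of 1.05. The 1 that fell was Kcnab1, a regulatory subunit. Kcnk10, a leak channel opened by stretch and lipids, was at 2.08 and 2.09 CPM on glass and 25.4 and 21.6 CPM on 1 kPa (log2 fold change 3.49, SE 0.16, adjusted p = 1.3e-17). The inward rectifiers Kcnj15 and Kcnj2 were higher: Kcnj15 was at 7.95 and 6.96 CPM on glass and 45.8 and 46.1 CPM on 1 kPa (log2 fold change 2.61, SE 0.10). Kcnj2 was at 12.3 and 10.5 CPM on glass and 33.9 and 35.5 CPM on 1 kPa (log2 fold change 1.60, SE 0.10). Among TRP, PIEZO, TMC and other mechanosensitive channels 11 of 36 rose and 7 fell, with a median of 0.08. Piezo1, the stretch-gated cation channel, was at 506 and 448 CPM on glass and 279 and 290.0 CPM on 1 kPa (log2 fold change -0.75, SE 0.06), with 24.6% of its exonic bases shared with another gene. Calcium genes had 17 that rose and 8 that fell of 34 (median 0.25; with the stricter filter, 15 of 27 were higher and 6 lower, with a median of 0.33). Cacna1g, a T-type channel, was at 47.2 and 50.5 CPM on glass and 146 and 136 CPM on 1 kPa (log2 fold change 1.53, SE 0.07), and Atp2b4, a pump that expels calcium, at 12.7 and 13.3 CPM on glass and 43.7 and 43.9 CPM on 1 kPa (log2 fold change 1.75, SE 0.10). Itpr1, the release channel of the endoplasmic reticulum, was at 128 and 121 CPM on glass and 71.3 and 75.2 CPM on 1 kPa (log2 fold change -0.77, SE 0.07).

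A pair of sodium pump genes best known from muscle and glia was low on glass and higher on 1 kPa. The beta subunit Atp1b2 was at 1.85 and 1.51 CPM on glass and 28.9 and 30.6 CPM on 1 kPa (log2 fold change 4.13, SE 0.14, adjusted p = 2.2e-20). The regulator Fxyd1 was at 1.39 and 1.39 CPM on glass and 11.8 and 12.3 CPM on 1 kPa (log2 fold change 3.11, SE 0.19). Of 16 sodium pump and aquaporin genes 10 rose and 2 fell (median 0.81; with the stricter filter, 7 of 10 were higher and 2 lower, with a median of 0.59). The water channel Aqp1 was at 104 and 105 CPM on glass and 167 and 174 CPM on 1 kPa (log2 fold change 0.70, SE 0.06) and Aqp5 at 73.9 and 70.4 CPM on glass and 38.6 and 37.0 CPM on 1 kPa (log2 fold change -0.93, SE 0.07), which moved in opposite directions. The 13 skeletal muscle markers summed to 16.5 to 18.3 CPM on glass and 46.6 to 49.8 CPM on 1 kPa, with 6 of 8 tested higher. The 14 Schwann cell and melanocyte markers summed to 30.9 to 31.9 and 60.8 to 60.9 CPM, with 6 of 10 tested higher and 1 lower. Pax7 had no count in any library, Myf5 at most 1 and Myod1 at most 7, but the myosin gene Myh1 had 1 count in each glass library and 152 and 145 on 1 kPa. The myosin gene Myh3 had 3 in each glass library and 143 and 106 on 1 kPa, and the muscle regulator Myog 1 and 2 on glass and 35 and 11 on 1 kPa. Tyr and Mlana had at most 1 count, whereas the neural crest factor Sox10 was at 0.878 and 0.406 CPM on glass and 4.58 and 4.15 CPM on 1 kPa (log2 fold change 2.705, SE 0.32), and Ngfr, a neurotrophin receptor, at 2.82 and 1.28 CPM on glass and 14.4 and 15.7 CPM on 1 kPa (log2 fold change 2.82, SE 0.19). Mbp, the myelin basic protein gene, was the marker of this list that fell. It was at 8.46 and 8.76 CPM on glass and 1.56 and 1.40 CPM on 1 kPa (log2 fold change -2.53). The part of these muscle, Schwann cell and melanocyte markers in the result was not tested.

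Imprinted genes, expressed from 1 parental copy and many of them tied to growth, leaned downward: of 41 tested 7 rose and 16 fell (median -0.11; stricter filter 3 higher and 13 lower of 27, median -0.17). Mest was at 201.2 and 194 CPM on glass and 32.2 and 36.5 CPM on 1 kPa (log2 fold change -2.53, SE 0.07, adjusted p = 4.8e-23), a 5.77-fold fall, with 23.1% of its exonic bases shared with another gene. Meg3 and Rian, non-coding RNAs of the same maternally expressed cluster, fell: Meg3 was at 309 and 268 CPM on glass and 210.4 and 200.2 CPM on 1 kPa (log2 fold change -0.49, SE 0.07). Rian was at 178 and 190.2 CPM on glass and 100.5 and 97.7 CPM on 1 kPa (log2 fold change -0.89, SE 0.06). Grb10, an adaptor that restrains insulin signalling, was at 351 and 335 CPM on glass and 231 and 237 CPM on 1 kPa (log2 fold change -0.55, SE 0.06), and Ndn, or necdin, at 81.9 and 79.6 CPM on glass and 57.3 and 55.3 CPM on 1 kPa (log2 fold change -0.52, SE 0.07). Dlk1, of the same cluster as Meg3 but paternally expressed, rose from 11.7 and 12.1 CPM to 17.4 and 16.8 CPM (log2 fold change 0.53, SE 0.11). The largest change in the imprinted list was also a rise, that of Dcn (log2 fold change 4.49), whose levels are given above. Among named long non-coding RNAs 8 of 41 rose and 7 fell. Malat1, a nuclear RNA, was at 1377 and 1478 CPM on glass and 1956 and 1767 CPM on 1 kPa (log2 fold change 0.38, SE 0.06).

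Among the largest rises over all genes outside the inflammatory groups, Spink5, a protease inhibitor of the epidermis, was at 1.25 and 1.22 CPM on glass and 83.1 and 79.0 CPM on 1 kPa (log2 fold change 6.03, SE 0.13, adjusted p = 9.2e-26). Enpp2, or autotaxin, which makes lysophosphatidic acid, was at 2.36 and 2.55 CPM on glass and 113 and 108 CPM on 1 kPa (log2 fold change 5.49, SE 0.12). Meltf, a transferrin relative on the cell surface, was at 1.71 and 0.870 CPM on glass and 57.3 and 54.1 CPM on 1 kPa (log2 fold change 5.38, SE 0.14), and Cd200, a surface brake on myeloid cells, at 0.601 and 0.696 CPM on glass and 21.5 and 20.2 CPM on 1 kPa (log2 fold change 5.01, SE 0.20). Serpinb2, the plasminogen activator inhibitor 2, was at 0.462 and 0.464 CPM on glass and 17.5 and 15.3 CPM on 1 kPa (log2 fold change 5.13, SE 0.23). Shisa2, which holds back FGF and Wnt receptors, was at 0.509 and 0.232 CPM on glass and 15.3 and 15.7 CPM on 1 kPa (log2 fold change 5.31, SE 0.24). Vnn3, a pantetheinase, had 4 counts on glass and 540 on 1 kPa, a ratio of 137 (95% counting interval 53.1 to 504). Cd36, a fatty acid transporter, had 5 and 253, a ratio of 51.3 (21.7 to 159). Pi16, a marker of a skin fibroblast pool, was at 0.740 and 0.986 CPM on glass and 30.9 and 29.7 CPM on 1 kPa (log2 fold change 5.15, SE 0.16). Each of these genes had under 3 CPM in each glass library.

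Dio2, the deiodinase that activates thyroid hormone, was at 2.82 and 4.29 CPM on glass and 132 and 131 CPM on 1 kPa (log2 fold change 5.24, SE 0.11, adjusted p = 3.4e-26), a 37.7-fold rise. Its promoter is shown because it carries a full cyclic AMP response element, TGACGTCA, 95 bases before the RefSeq start and a TATA box, TATAAA, 30 bases before it, both in capitals. The stretch lies on GRCm38.p6 at chr12:90739049-90739148 on the minus strand; this start is upstream of the GENCODE bounds of Dio2 given above. Of the 32851 promoters 1.55% hold the first motif and 12.4% the second.
Dio2: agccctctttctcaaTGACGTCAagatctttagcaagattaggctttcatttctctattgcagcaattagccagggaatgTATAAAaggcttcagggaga

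Large falls were fewer. Cpa4, a carboxypeptidase, was at 9.06 and 8.76 CPM on glass and 0.585 and 0.841 CPM on 1 kPa (log2 fold change -3.65, SE 0.27, adjusted p = 1.6e-12). Syt8, of the synaptotagmin family, was at 23.5 and 23.1 CPM on glass and 3.75 and 3.47 CPM on 1 kPa (log2 fold change -2.69, SE 0.14). Prune2 was at 50.2 and 44.0 CPM on glass and 9.11 and 7.62 CPM on 1 kPa (log2 fold change -2.49, SE 0.11), and Plekha7, a protein of the adherens junction belt, at 35.3 and 33.0 CPM on glass and 6.92 and 8.01 CPM on 1 kPa (log2 fold change -2.20, SE 0.11). Camk2a, a calcium-dependent kinase known from synapses, was at 7.63 and 7.31 CPM on glass and 1.22 and 1.68 CPM on 1 kPa (log2 fold change -2.37, SE 0.23). Klhdc7a was at 11.9 and 11.7 CPM on glass and 1.80 and 1.68 CPM on 1 kPa (log2 fold change -2.75, SE 0.19) and Ces2e, a carboxylesterase, at 6.24 and 5.28 CPM on glass and 0.487 and 1.63 CPM on 1 kPa (log2 fold change -2.49, SE 0.31).

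Measured as a difference in CPM rather than as a fold, the gains and losses were carried by abundant genes. Spp1, or osteopontin, was at 3972 and 4177 CPM on glass and 9020.0 and 8469 CPM on 1 kPa (log2 fold change 1.10, SE 0.07), with 18.8% of its exonic bases shared with another gene. Fn1, or fibronectin, was at 18103 and 16727 CPM on glass and 22079 and 22100.0 CPM on 1 kPa (log2 fold change 0.34, SE 0.07). The largest loss was that of ENSMUSG00000119584, whose share of counts, given above, varied widely between libraries of a substrate and overlapped between substrates. Among the other losses, Vim, the intermediate filament vimentin, was at 4294 and 4089.7 CPM on glass and 2131 and 2250.4 CPM on 1 kPa (log2 fold change -0.94, SE 0.06), and Thbs1, the matrix protein thrombospondin 1, at 3824 and 3906 CPM on glass and 2124 and 2175 CPM on 1 kPa (log2 fold change -0.85, SE 0.06). Ahnak, a giant scaffold under the membrane, was at 2681 and 2613 CPM on glass and 1304 and 1284 CPM on 1 kPa (log2 fold change -1.03, SE 0.06). Il1rl1, the receptor of IL-33, was at 2788 and 3029 CPM on glass and 1971 and 1972 CPM on 1 kPa (log2 fold change -0.56, SE 0.06).

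The 13 macrophage and leukocyte markers summed to 16.7 to 18.4 CPM on glass and 57.8 CPM in both 1 kPa libraries, and 3 of 6 tested rose. Ptprc, the pan-leukocyte CD45, had 2 to 5 counts per library, and Itgam at most 1. Others were above the floor: Cd68 was at 4.16 and 3.71 CPM on glass and 3.65 and 3.75 CPM on 1 kPa, where the groups overlap, and Csf1r at 3.19 and 4.64 CPM on glass and 2.83 and 2.75 CPM on 1 kPa. Neither passed the test, though Csf1r did without glass replicate 1. Lyz2, or lysozyme, was at 2.77 and 3.71 CPM on glass and 7.65 and 4.99 CPM on 1 kPa (log2 fold change 0.99, SE 0.21). Cd14, the lipopolysaccharide co-receptor, was at 5.59 and 4.93 CPM on glass and 41.3 and 43.8 CPM on 1 kPa (log2 fold change 3.005, SE 0.12). The 12 pericyte and smooth muscle markers summed to 455 to 508 CPM on glass and 471 to 474 CPM on 1 kPa, with 5 of 11 tested higher and 4 lower.

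Set directly against the 20 kPa gel, the same 2 libraries on 1 kPa differed for 3035 genes (18.9% of those tested), 1597 higher on 1 kPa (9.92%) and 1438 lower (8.94%). Of the 26 genes of carbonic anhydrases and of lactate and glucose transport 8 were higher and 2 lower on the softer gel, with a median log2 difference of 0.08. Slc16a3 was at 141 and 142 CPM on 20 kPa, against the 324 and 311 CPM on 1 kPa (log2 difference 1.17, SE 0.06, adjusted p = 1.4e-15). Slc2a1 was at 124 and 121 CPM on 20 kPa, so that 1 kPa lay above both other substrates (log2 difference 0.93, SE 0.06). Nos2 was at 2.83 and 2.32 CPM on 20 kPa (log2 difference 5.67, SE 0.11), Dgat2 at 14.1 and 12.3 CPM (log2 difference 1.95, SE 0.10) and Atp2b4 at 19.01 and 14.97 CPM (log2 difference 1.37, SE 0.10). Ereg was at 123 and 125 CPM on 20 kPa and 256 and 262 CPM on 1 kPa (log2 difference 1.07, SE 0.06), and Vegfa at 207 and 213 CPM (log2 difference 0.87, SE 0.06).

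Other genes were lower on 1 kPa than on 20 kPa. Chondrocyte markers were so in all 13 tested, with a median log2 difference of -0.92. Elastin, at 477 and 466 CPM on 20 kPa, rose less on 1 kPa (log2 difference -1.47, SE 0.06), and so did Fgfr3, at 37.2 and 36.1 CPM on 20 kPa (log2 difference -1.08, SE 0.10), Fzd9, at 70.5 and 63.0 CPM (log2 difference -1.33, SE 0.09), and Pappa2, at 55.9 and 50.8 CPM (log2 difference -1.36, SE 0.09). For Ogn, Aldh1a7, Dkk3 and Aqp5 the levels on 20 kPa were near or above those on glass and 1 kPa was the low substrate: Ogn was at 318 and 302 CPM on 20 kPa (log2 difference -2.18, SE 0.09). Aldh1a7 was at 36.2 and 34.3 CPM (log2 difference -2.60, SE 0.11), Dkk3 at 274 and 264 CPM (log2 difference -1.01, SE 0.06) and Aqp5 at 79.6 and 87.6 CPM (log2 difference -1.14, SE 0.07).

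For several of the strongest movers a difference between the gels was not detected. Ntrk2 was at 38.8 and 34.5 CPM on 20 kPa (log2 difference of 1 kPa over 20 kPa 0.09, adjusted p = 5.4e-01), and Cav1 at 309 and 329 CPM (-0.05, adjusted p = 6.4e-01). Scd2 was at 381 and 367 CPM (0.07, adjusted p = 4.3e-01). The lists of basic machinery differed between the gels to unequal extents, to be read against the 18.9% of all tested genes. Of 28 TCA cycle genes 2 were higher and 4 lower on 1 kPa than on 20 kPa. Of 67 translation factors 2 were higher and 4 lower. Of 46 proteasome subunits none differed. Of 20 subunits of the vacuolar ATPase 1 was higher and 7 lower, of 16 tubulins 4 were higher and 2 lower, and of 37 kinesins 8 were higher and 4 lower. The 2 comparisons with glass share the glass libraries, and the medians of the 2 gels against glass are given only side by side: -0.24 and -0.19 for the TCA cycle, -0.23 and -0.21 for translation factors and -0.77 and -0.70 for caveolae, 1 kPa first.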

How the data were processed

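Polyadenylated RNA of mouse ear fibroblasts on glass, 1 kPa and 20 kPa gels was compared over 6 libraries, 2 per group. The authors deposited raw read counts per gene, with no normalisation; the tools were cutadapt under Trim Galore, featureCounts and STAR 2.7.10b, on build mm10, per the submitters' processing notes. Settings, annotation and counting strand: not given in the sources used here. Overlapping genes and near-identical copies are therefore uncertain. Symbols, positions and exon overlap come from GENCODE on GRCm38, and promoters from RefSeq on GRCm38.p6.

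Genes passing filterByExpr by group were tested with edgeR 4.0.16 (R 4.3.3) using TMM factors and glmQLFit with group as the only term on all 6 libraries (3 residual degrees of freedom, common biological coefficient of variation 4.98%), with Benjamini-Hochberg adjustment over 16093 genes and a threshold of 0.05. The SE was derived from the F statistic as |log2 fold change|/√F and may understate counting error where a group has few counts. Every adjusted p is from this fit. Replicates are named in the titles. With 2 libraries against 2, no exact permutation test can pass the threshold, so none was used. The fit was checked on simulated data. Alternatives were other scalings and filters, DESeq2 1.42.0, limma 3.58.1 (voom), a replicate block and leaving out each library.

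The comparison and the 97 gene lists were chosen with earlier results of these data known, so lists have counts and medians only and no test. Named genes are up to 6 per list with the smallest p among those with at least 2 CPM, defining members, and the largest changes over all genes; exceptions within a list, single markers of other cell types, and L1cam, Ftl1 and F2rl1, were named after their values were seen. A few of the rule's genes, and 1 list, are left out of the text.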

Additional observations from a re-analysis of the deposited data

Results flagged for a closer look

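Against glass, 108 genes were called in opposite directions on the 2 gels, 48 of them higher on 1 kPa and 60 lower. Among list members with a change of at least 0.5 on the log2 scale both ways, 5 stood out, all lower on 1 kPa than on glass and higher on 20 kPa, with the difference between the gels itself tested. Omd, the proteoglycan osteomodulin, had 4.63 and 5.16 CPM in the 1 kPa libraries, 10.2 and 15.6 CPM in those from glass and 25.3 and 26.8 CPM in those from the stiffer gel. Its log2 difference between the gels was -2.42 (edgeR adjusted p = 2.0e-13). Aspn, or asporin, of the same family, was, in the same order, at 72.0 and 68.0, 95.1 and 123 and 251 and 221 CPM, a difference of -1.75 (adjusted p = 3.2e-16). Aldh1a1, a retinaldehyde dehydrogenase, was at 7.46 and 8.74, 16.5 and 17.2 and 27.2 and 26.4 CPM, a difference of -1.73 (adjusted p = 4.3e-13). Cnmd, the cartilage protein chondromodulin, was at 21.1 and 18.8, 30.5 and 28.9 and 51.9 and 49.0 CPM, a difference of -1.33 (adjusted p = 4.6e-13). Col11a1, a cartilage collagen chain, was at 245 and 236, 365 and 344 and 527 and 509 CPM, a difference of -1.11 (adjusted p = 2.7e-15). In each of the 5 genes the glass libraries lay between those of the 2 gels. The glass libraries are shared by both comparisons with glass. Groups of 2 libraries are too small for a search for samples far from the rest.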

How the results depend on the processing

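Over the alternatives, 5642 to 7234 genes changed on 1 kPa against glass; DESeq2 gave 5764 and leaving out 1 library 5642 to 6797. The genes changed at least 2-fold were 1382 to 1451 higher and 452 to 476 lower without 1 library, and 655 higher and 195 lower under the stricter filter, which tested 10992 genes. The genes that differ between 1 kPa and 20 kPa were 2000 with DESeq2 and 1727 to 3758 without 1 library, lowest without 1 kPa replicate 2 and 1976 without replicate 1; with fewer samples fewer calls can be made, and the lone library is assumed to vary like the other groups. With library totals 49.4% of changed genes were higher, against 51.1%. Same-numbered libraries did not deviate together over genes (r of -0.03, -0.02 and -0.03). With 1 difference per group these values cannot show if such libraries share a culture, animal or batch. With the replicate block 7032 genes changed, 3597 higher and 3435 lower. Of the results for named genes under an alternative, 4045 kept their direction and side of the threshold and 11 lost the call: that of Cyc1 was lost 7 times and those of Noc4l and Rcc1 once, without 1 kPa replicate 2 and 1. That of Krt6a was lost with DESeq2 and without 1 kPa replicate 1, and Csf1r passed only without glass replicate 1. Of the list medians under an alternative, 1101 moved by less than the spread between replicates and 156 by more. The comparison of motif shares between genes that rose or fell was not run, nor was its 100-base window, because 69.4% of tested genes, 64.2% of those that rose at least 2-fold and 62.7% of those that fell had a promoter entry, below the minimum of 80%. Depth limits the fold of genes with a few counts on glass.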
